A study of Mus musculus with 2 samples.

Results

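Gpr17-high precursors were a small set of tumour cells rich in the transcript of Gpr17, a G protein-coupled receptor of the oligodendrocyte lineage, in which few genes of commitment were detected. They were chosen by measured values. A cell belonged to them when it had at least 10 Gpr17 UMIs (unique molecular identifiers, 1 per captured transcript) per 10000 UMIs and when fewer than 3 of 6 rule genes, Enpp6, Bmp4, Bfsp2, Fa2h, Mycl and 9630013A20Rik, were detected. Of 5370 kept cells, 183 met the rule, 133 of 2749 in pool 1 and 50 of 2621 in pool 2. They were set against the 826 and 1234 cells in which no Gpr17 UMI was found. A further reference was the 46 and 27 Gpr17-high cells with 3 or more rule genes, and the remaining 1744 and 1310 cells had a Gpr17 UMI but lay below the threshold.

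All cells came from gliomas of C57BL/6 mice in which the PDGFB gene had been transferred in utero into the ventricles of the embryonic telencephalon. Tumours were collected about 40 days after birth, dissociated and sorted for GFP, and sets of 2 tumours were combined into each of 2 droplet libraries, pool 1 and pool 2, so the tumour of a cell is not known. There was 1 group and no control tissue, and all states compared here carried the same treatment and came from the same tumours. The sample titles of the pools share a number whose meaning is not stated, and the labels do not say whether the pools share an animal or litter. The names of the count data also give each pool a different day, and what the day stands for is not stated.

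Oligodendrocyte precursors divide in response to platelet-derived growth factor through the receptor Pdgfra, and on leaving the cycle they pass through a short premyelinating stage before they make myelin. In mice, GPR17 appears as precursors begin to differentiate, peaks before myelin proteins are made and is then shut off. Its overexpression in the mouse lineage blocks maturation, so it is regarded as a brake on myelination. PDGFB, the driver of these tumours, is a ligand of the PDGF receptors.

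The values that chose the cells are given as a description only. Gpr17 ran from 10 to 74.2 per 10000 UMIs with a median of 14.2 in the precursors of pool 1, and from 10 to 46.8 with a median of 13.1 in pool 2. The median cell held 8 Gpr17 UMIs in pool 1 and 12.5 in pool 2, and the lowest held 4 in both. The threshold cut through a continuous range, with 22 and 10 cells at 10 to 11 per 10000 just inside it and 33 and 16 cells at 9 to 10 just outside, all with fewer than 3 rule genes. Of the precursors, 75 in pool 1 and 23 in pool 2 had none of the 6 rule genes, 44 and 16 had 1, and 14 and 11 had 2. The 6 rule genes summed to 113.3 and 133.3 CPM (a gene's UMIs per 1000000 UMIs of the state) in the precursors, 2047 and 1554 CPM in Gpr17-high cells with 3 or more rule genes, and 18.4 and 17.8 CPM in cells without a Gpr17 UMI. The precursors therefore carried some commitment transcripts, more than the reference and fewer than the cells with 3 or more rule genes. The precursors made up 4.84% of kept cells in pool 1 (4.07 to 5.71%, 95% interval by the exact Clopper-Pearson method) and 1.91% of those in pool 2 (1.42 to 2.51%). These intervals do not overlap, but they cover counting error only, and 2 pools allow no test. Pdgfra, Olig2 and Sox10, defining genes of the oligodendrocyte lineage, were present in the precursors of both pools (values below), and microglia markers were near 0.

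Gpr17-high precursors differed from the cells without a Gpr17 UMI in depth and RNA makeup as well as in genes. Precursors were shallower, with medians of 4948 and 8926.5 UMIs, against 7960.5 and 12366.5 UMIs in cells without a Gpr17 UMI. Ribosomal protein genes gave a median of 3.48% and 8.63% of a precursor's UMIs, against 9.15% and 11.1%. Cells with under 5% ribosomal UMIs were 87 (65.4%) and 11 (22%) of the precursors, against 286 (34.6%) and 196 (15.9%) of the reference cells. The nuclear RNA Malat1 made up 8.22% and 6% of the precursors' summed UMIs, against 4.42% and 4.14%, and mitochondrial RNA a median of 3.93% and 1.89%, against 2.71% and 1.3%. Pool 1 thus held most of the low-ribosomal precursors. The part of these differences in the gene results was not tested as a cause, but each count below was also computed on the 46 and 39 precursors and 540 and 1038 reference cells with at least 5% ribosomal UMIs, in an alternative added after seeing the data.

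**Figure D1:**
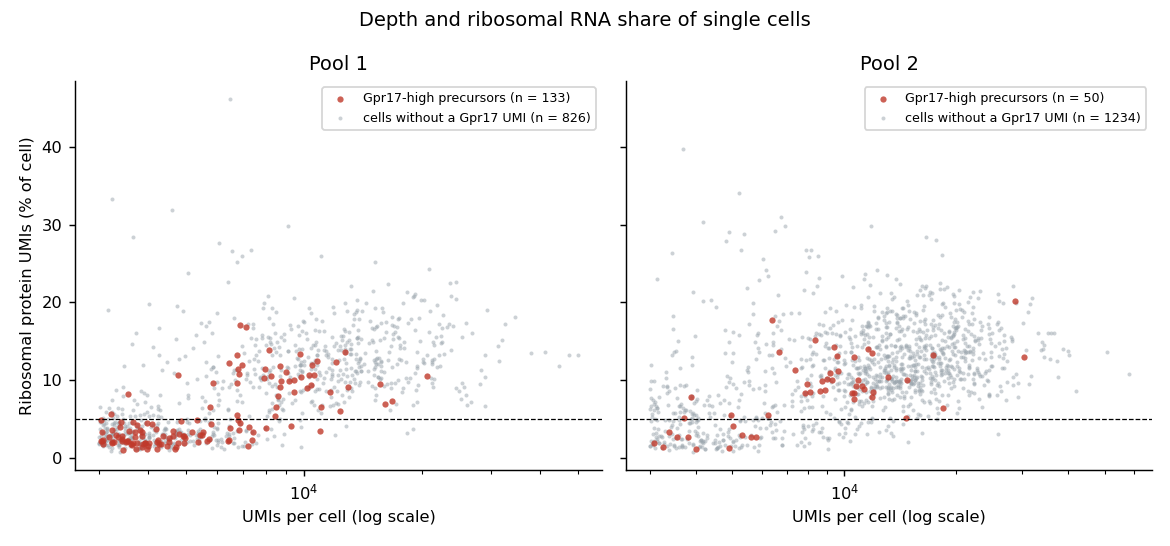
Share of ribosomal protein UMIs (percent of a cell's UMIs) against UMIs per cell (log scale), 1 point per cell, by pool. Gpr17-high precursors (red) and cells without a Gpr17 UMI (grey) both fall into a low and a high range, and 87 of 133 precursors in pool 1 but 11 of 50 in pool 2 lie under the dashed line at 5%.

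UMIs were summed per pool and state, and the 8 sums were fitted with edgeR's quasi-likelihood test with the pool as a block. The p-values measure how far differences between states varied between the pools, not between tumours, and the sums of 1 pool share their tumours. Of 12734 genes tested, 814 (6.39%) were higher and 1131 (8.88%) lower in Gpr17-high precursors than in cells without a Gpr17 UMI at an adjusted p under 0.05, 15.3% in all. At least 2-fold differences were found for 399 of the higher and 514 of the lower genes, and 7 called genes lay on opposite sides in the pools. Scaling by library totals in place of TMM turned the split to 1106 higher and 869 lower, 56% higher in place of 41.9%, and the median of all genes moved to 0.09 from -0.01 on the log2 scale. With at least 5% ribosomal UMIs, 703 genes were higher and 856 lower, which included 557 of the 814 and 750 of the 1131. Of the called genes tested there, 811 of 812 higher and 1128 of 1128 lower genes had the same sign. These cells are a part of those that gave the calls, so the shared signs are a description and no separate support. Under 5% ribosomal UMIs, with 87 and 11 precursors and 286 and 196 reference cells, 72 genes were higher and 123 lower. Of the called genes tested there, 705 of 757 higher and 949 of 1050 lower genes had the same sign. When each precursor was matched to the remaining reference cell nearest in ribosomal share (133 and 50 reference cells), also added after seeing the data, 196 genes were higher and 242 lower of 9606 tested. Among genes called in the whole comparison, 762 of 763 higher and 1037 of 1042 lower ones tested there kept their sign. That fit reused every precursor, so these signs are no separate support either. Counts given below for the matched reference are to be read against its 196 higher and 242 lower genes of 9606.

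The sialidase gene Neu4, which lies on chromosome 1 from 94020451 to 94028334 in GRCm38, had the largest fold among the higher genes named by the rule. Neu4 stood at 337.4 CPM in the precursors of pool 1 and 311.1 CPM in those of pool 2, against 21.8 and 13.9 CPM in cells without a Gpr17 UMI. The summed level of the precursors lay above that of the reference in each pool, and the log2 fold change was 4.11 ± 0.18 SE (adjusted p = 1.1e-09, edgeR). After each cell was thinned to 3000 UMIs, a Neu4 UMI was found in 50.4% (41.6 to 59.2%) and 58% (43.2 to 71.8%) of precursors, against 7.14% (5.48 to 9.12%) and 4.62% (3.52 to 5.94%) of reference cells. The unthinned shares were 60.9% and 82%, against 14% and 10.1%. Cells with 3 or more of 10 microglia markers, a type that should lack Neu4, gave 23.1% (5.04 to 53.8%) of 13 cells in pool 1 and 0% of 11 cells in pool 2, where the interval reaches 28.5%. Their median depth before thinning was 13755 and 7231 UMIs. They were no clean background, since 69.2% and 45.5% of them held a Pdgfra UMI and 46.2% and 0% a Gpr17 UMI after thinning.

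Sema5a, which encodes a transmembrane semaphorin, stood at 235 and 281.5 CPM in the precursors, against 39.6 and 29.6 CPM in cells without a Gpr17 UMI (log2 2.79 ± 0.17, adjusted p = 5.05e-08). The sulfotransferase gene Chst5 (log2 3.08 ± 0.31), the melanocortin receptor gene Mc5r (2.95 ± 0.27), the collagen gene Col11a2 (2.72 ± 0.27) and the gene of the actin regulator Kank1 (2.59 ± 0.20) were also higher, as were Sowaha (3.56 ± 0.41) and Mif4gd (2.77 ± 0.21). Synapse-related genes stood among them too, with Rph3a, a Rab3 effector of vesicle release, at 2.55 ± 0.39 (but -0.47 in precursors with at least 20 Gpr17 UMIs per 10000), and Shisa9, an auxiliary subunit of AMPA receptors, at 2.32 in pool 1 and 2.70 in pool 2. The calcium-binding protein genes S100a6 and S100a4 rested more on pool 2. S100a6 had 138.6 and 507.9 CPM in the precursors, against 42.5 and 27.7 CPM, so its log2 value was 1.59 in pool 1 and 4.12 in pool 2, and that of S100a4 was 1.41 in pool 1 and 3.91 in pool 2. In cells with at least 5% ribosomal UMIs all 12 genes remained called, with log2 values from 2.56 (Rph3a) to 4.62 (Neu4).

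**Figure D2:**
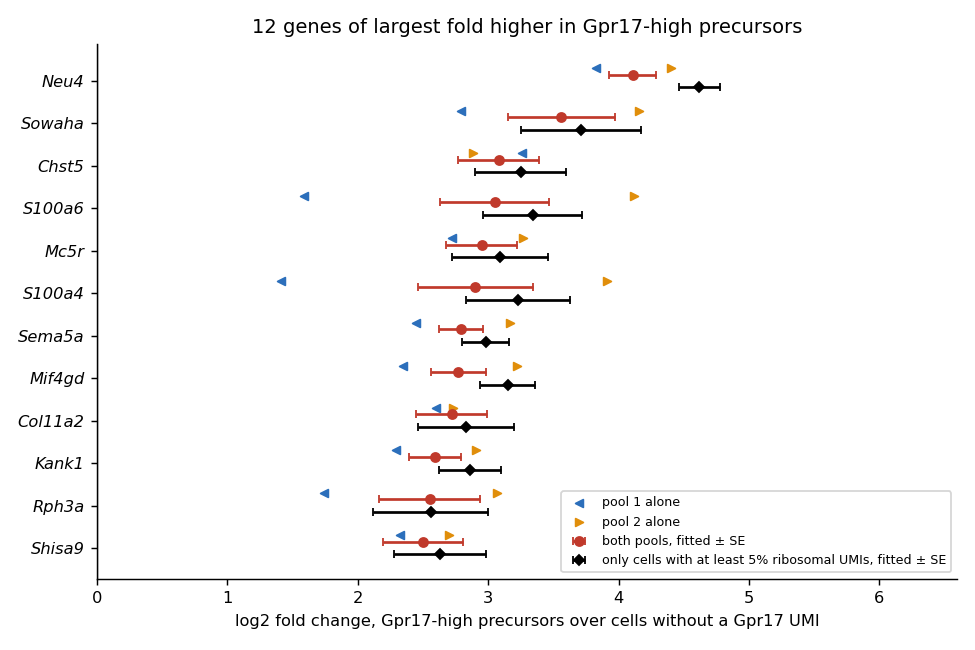
Log2 fold change of Gpr17-high precursors over cells without a Gpr17 UMI for the 12 higher genes of largest fold. Triangles are pool 1 and pool 2 alone, circles the fit over both pools and diamonds the fit on cells with at least 5% ribosomal UMIs, with bars of 1 SE. All values lie above 0, Neu4 is highest at 4.11, and S100a6 and S100a4 are far apart between pools.

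The genes of proliferation were lower in Gpr17-high precursors. Of 52 G2/M phase genes tested, 47 were lower and 0 higher, with a median log2 of -3.44 (-3.32 with genes at 0 in a state set to a floor of 3 counts over both pools), and of 44 S phase genes 23 were lower and 0 higher, with a median of -1.34 (-1.30 with the floor), against 8.88% of all genes called lower and a median of -0.01. Mki67, the Ki-67 proliferation antigen, stood at 34.9 and 14.8 CPM in the precursors, against 303.3 and 166.9 CPM in cells without a Gpr17 UMI (log2 -3.29 ± 0.25, adjusted p = 3.98e-07). The log2 difference was -3.23 in pool 1 and -3.57 in pool 2. Top2a, a topoisomerase of dividing cells, stood at 26.5 and 31.7 CPM in the precursors, against 378.9 and 194.9 CPM (log2 -3.47 ± 0.27). The kinetochore gene Cenpf (-4.00 ± 0.23), the chromosomal passenger gene Birc5 (-4.21 ± 0.36), the ubiquitin-conjugating enzyme gene Ube2c (-4.63 ± 0.27) and the replication licensing gene Mcm3 (-3.56 ± 0.50) were lower as well. Cdc20, an activator of the anaphase-promoting complex, had 2 UMIs in all precursors together, which gave a 39.4-fold lower level with a counting interval of 10.9 to 325.6. Likewise Ccnb2, a B-type cyclin, had 2 UMIs and was 32.3-fold lower (8.92 to 267), and Knl1, of the outer kinetochore, had 3 UMIs and was 20.5-fold lower (7.01 to 99.8).

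A cell was called cycling when it held UMIs of at least 2 of 10 core cycling genes. After thinning to 3000 UMIs, 9.77% (5.31 to 16.1%) and 4% (0.488 to 13.7%) of the precursors were cycling, 2.17% (0.055 to 11.5%) and 3.7% (0.0937 to 19%) of Gpr17-high cells with 3 or more rule genes, and 27.6% (24.6 to 30.8%) and 16.8% (14.7 to 19%) of cells without a Gpr17 UMI. The intervals of precursors and reference did not overlap in either pool, while those of both Gpr17-high states did. These intervals cover counting error only, and 2 pools allow no test. In pool 2 the share of the precursors rests on 2 cycling cells of 50. Unthinned, the shares were 17.3% and 18% of precursors, 26.1% and 40.7% of Gpr17-high cells with 3 or more rule genes, and 43.3% and 35.7% of reference cells. Only the gap between precursors and reference was in the same direction at both depths. Among cells with at least 5% ribosomal UMIs, 47 of 52 G2/M genes were again lower. With cycling cells left out of every state, 3 of 28 G2/M genes and 0 of 29 S phase genes tested were lower, and 509 genes in all were higher and 600 lower. In that alternative the log2 value of Mki67 was 0.04 and that of Top2a 0.37. Since that filter was itself set on core cycling genes, its values for genes of proliferation are a description and no separate result. With the reference matched on ribosomal share, 42 of 50 G2/M genes and 7 of 39 S phase genes were lower.

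Some genes called lower were markers of other cell types, and cells with such markers stood in the reference. The complement genes C1qa and C1qc had 0 UMIs in the precursors, against 55.1 and 61 CPM (C1qa) and 35.5 and 50.7 CPM (C1qc) in cells without a Gpr17 UMI, so they were at least 25.6-fold and 19.8-fold lower (floor of 3 counts over both pools). C1qb had 1 UMI in the precursors and was 67.6-fold lower (12.1 to 2672), and the lysosomal protease gene Ctss, also with 1 UMI, 56.1-fold lower (10 to 2217). Of 10 microglia markers, 7 and 8 were at 0 in the precursors and none in the reference, and the list summed to 3.61 and 4.23 CPM against 234.9 and 309.4 CPM. Of the 10, 8 were called lower, against 8.88% of all genes. Cells of types that lack Gpr17 fall into the reference by the rule. The lower values of such markers therefore describe the reference and are no result about the precursors. No precursor held 3 or more of these markers, against 5 and 11 reference cells. P2ry12, a nucleotide receptor of microglia, was at 0 in the precursors and at 4.36 and 10.7 CPM in the reference. Cd93, a receptor also found on endothelial and myeloid cells, had 2 UMIs in the precursors and was 27.9-fold lower (7.7 to 230.7).

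Genes of myelin and mature oligodendrocytes were lower more often than higher, but this count turned with the cells compared. Of 23 tested, 3 were higher and 13 lower in the precursors, with a median log2 of -3.39 (-1.68 with the 5 genes at 0 in a state set to the floor). Of all genes, 6.39% were higher and 8.88% lower. Cells with UMIs of at least 13 of the 24 listed genes numbered 0 and 0 among the precursors and 3 and 18 among cells without a Gpr17 UMI. With these cells and those carrying microglia markers left out of every state, in an alternative added after seeing the data, 6 of 17 tested were higher and 2 lower. The filter used the myelin genes themselves. With at least 5% ribosomal UMIs and no such filter, 6 of 21 were higher and 1 lower, and with the reference matched on ribosomal share 0 of 18 were higher and 6 lower. Over all genes these settings in turn gave 970 higher and 1117 lower of 12763, 703 and 856 of 12322, and 196 and 242 of 9606. Which of these features of the reference moved the count was not tested. Apod, an apolipoprotein gene, had a log2 of -5.15 in the whole comparison and 1.93 (adjusted p = 0.224) without those cells. Ptgds, the gene of prostaglandin D synthase, had -4.80 and, without those cells, 1.36 (adjusted p = 0.147). Mal, a proteolipid of myelin, had 2 UMIs in the precursors and was 52.4-fold lower (14.5 to 433.4), and it was no longer called with at least 5% ribosomal UMIs (-2.72, adjusted p = 0.687). The iron carrier gene Trf (-3.72) was called lower, but stood at -0.82 (adjusted p = 0.439) without the other cell types. Cnp, an enzyme of myelin membranes, and the connexin gene Gjc3 were higher in the precursors with or without those cells, with Cnp at 313.3 and 423.3 CPM against 164.9 and 208.5 CPM (log2 0.87 ± 0.22) and Gjc3 at 145.8 and 116.4 CPM against 42.4 and 49.9 CPM (1.41 ± 0.19). Among cells with under 5% ribosomal UMIs the direction of Cnp turned, with 190 and 188.4 CPM in the precursors, against 229.5 and 608.7 CPM in the reference (log2 -0.60).

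Receptor genes of the precursor state did not pass the test, while several of its surface and matrix genes were higher. Pdgfra, the receptor at which PDGFB acts, stood at 1850 and 1295 CPM, against 1191 and 1221 CPM in cells without a Gpr17 UMI (log2 0.30 ± 0.25, adjusted p = 0.454), and a Pdgfra UMI was found in 89.5% (83 to 94.1%) and 92% (80.8 to 97.8%) of thinned precursors, against 93.6% (91.7 to 95.2%) and 93.7% (92.2 to 95%). Pool 1 was higher by 0.52 and pool 2 by 0.01, and within the precursors with at least 5% ribosomal UMIs the level was 1149 CPM in both pools, against 969.7 and 1153 CPM. The NG2 proteoglycan gene Cspg4 had 729 and 539.7 CPM, against 484.3 and 466.5 CPM (0.33 ± 0.23, adjusted p = 0.371), and the phosphatase receptor gene Ptprz1 4103 and 3602 CPM, against 3066 and 3240 CPM (0.19 ± 0.18, adjusted p = 0.522). None of these 3 passed the test. Of the 20 precursor genes on the list, 8 were higher and 1 lower, with a median of 0.40, against 6.39% of all genes higher and 8.88% lower. In cells with at least 5% ribosomal UMIs 11 were higher and 2 lower, and with the reference matched on ribosomal share 5 were higher and 0 lower. Beside Neu4, the higher ones included the proteoglycan gene Vcan, with 1358 and 840.2 CPM against 350.4 and 328.6 CPM (1.56 ± 0.18), and Tnr, encoding tenascin-R, with 1522 and 1496 CPM against 556.2 and 480.8 CPM (1.45 ± 0.18).

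Among 32 lineage transcription factors, 12 were higher and 2 lower, with a median log2 of 0.36 (0.42 with the floor), against 6.39% of all genes higher and 8.88% lower. With the reference matched on ribosomal share, 4 of 32 were higher and 1 lower, against 196 higher and 242 lower of all 9606 genes tested there. Sox8, a relative of Sox10, stood at 418.1 and 298.4 CPM in the precursors, against 104.9 and 58.3 CPM in cells without a Gpr17 UMI (2.06 ± 0.16, adjusted p = 4.65e-07), and was found in 69.9% (61.4 to 77.6%) and 62% (47.2 to 75.3%) of thinned precursors, against 28.1% (25 to 31.3%) and 15.5% (13.5 to 17.6%). Sox10, which drives oligodendrocyte identity, was higher by a smaller step, at 437.4 and 495.2 CPM against 278 and 301.3 CPM (0.59 ± 0.16, adjusted p = 0.0224). Nkx2-2 (0.89 ± 0.19) and Tcf7l2 (0.74 ± 0.22), factors of differentiating precursors, were higher, although Tcf7l2 did not pass with at least 5% ribosomal UMIs (0.68, adjusted p = 0.113). So were Zeb2 (1.20 ± 0.19), known to promote myelination in mice, and Sox4 (1.12 ± 0.17). The lineage factors Olig2 (0.19 ± 0.17, adjusted p = 0.491) and Olig1 (0.59 ± 0.20, adjusted p = 0.0579) did not pass. Myrf, the master regulator of myelin genes, stood at 18.1 and 10.6 CPM in the precursors, against 3.74 and 7.65 CPM (1.21 ± 0.58, adjusted p = 0.168), and passed in cells with at least 5% ribosomal UMIs (2.55, adjusted p = 0.014) and without the other cell types (2.91, adjusted p = 0.00214).

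Genes of differentiating precursors were higher in part. Of 30 listed genes, 13 were higher and 3 lower, with a median of 0.38. Of all genes, 6.39% were called higher and 8.88% lower, so the share lower lay near the background. Bcas1, a marker of early myelinating cells, stood at 556.7 and 613.7 CPM in the precursors, 2969 and 1767 CPM in Gpr17-high cells with 3 or more rule genes, and 152.2 and 184.8 CPM in cells without a Gpr17 UMI (precursors over the last, 1.69 ± 0.24, adjusted p = 0.000153). It was thus intermediate in both pools. The tubulin deacetylase gene Sirt2 was likewise intermediate, with 542.2 and 647.6 CPM, 3183 and 2580 CPM, and 225 and 202 CPM in the same order (1.38 ± 0.19, adjusted p = 0.00017). Itpr2, an endoplasmic calcium channel gene of newly differentiating cells, was higher by 0.79 ± 0.17 (adjusted p = 0.00471), and the sorting nexin gene Snx22 by 1.88 ± 0.18. The kinase gene Fyn was not called, at 0.36 ± 0.20 (adjusted p = 0.229). The noncoding gene 1700047M11Rik had 24.1 and 31.7 CPM, against 1.74 and 2.21 CPM (3.57 ± 0.40). Lims2 was higher by 2.10 ± 0.22, but its value is uncertain, since in GRCm38 it spans 31922290 to 31958619 on chromosome 18 and encloses Gpr17 (31942997 to 31949636) on the opposite strand, and the use of strand in counting is not given in the sources used here.

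**Figure D3:**
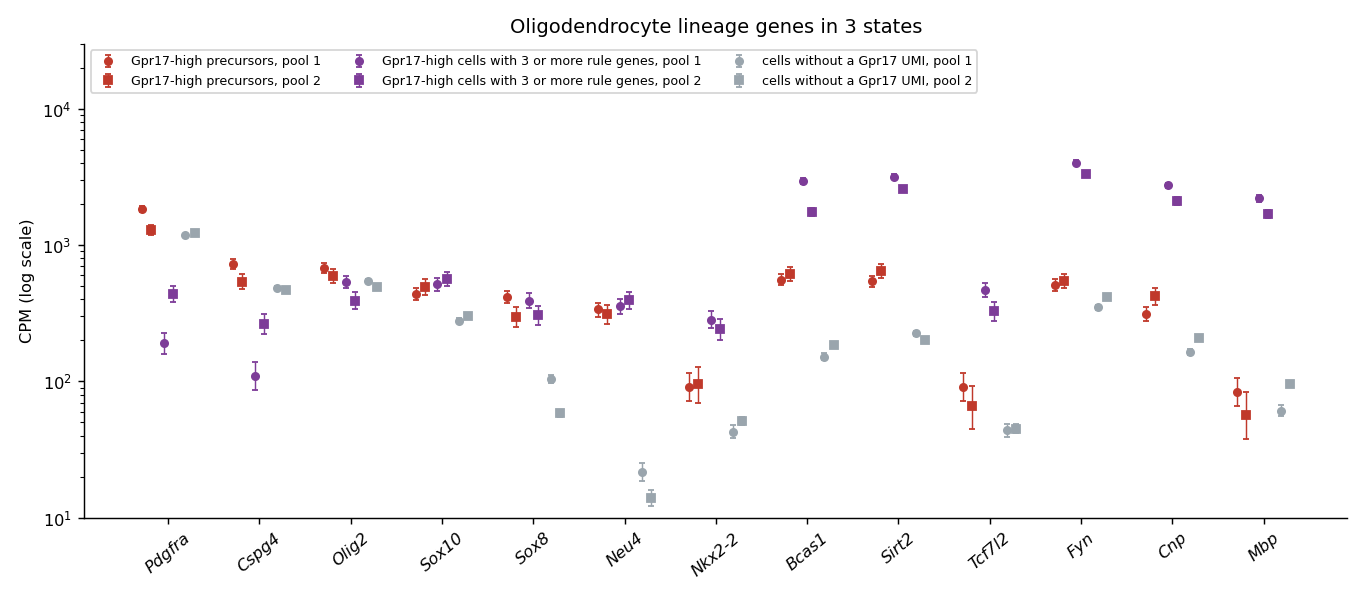
CPM on a log scale of 13 oligodendrocyte lineage genes in Gpr17-high precursors (red), Gpr17-high cells with 3 or more rule genes (purple) and cells without a Gpr17 UMI (grey), with circles for pool 1, squares for pool 2 and exact Poisson 95% intervals. The precursors share high Pdgfra with the reference and high Sox8 and Neu4 with the Gpr17-high cells that carry rule genes, and lie between them for Bcas1 and Sirt2.

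Signalling genes differed by list, in numbers to be read against the 6.39% of all genes higher and 8.88% lower. In the Notch list, 3 of 14 were higher and 1 lower, among them the target gene Hey2 with 44.6 and 29.6 CPM against 9.22 and 4.04 CPM (2.45 ± 0.33) and the ligand gene Dll1 (1.33 ± 0.27), while the target gene Hes1 was lower, with 20.5 and 16.9 CPM against 72.9 and 99.4 CPM (-2.20 ± 0.26). In the BMP and Id list, 2 of 11 were higher and 1 lower, with the inhibitor of differentiation Id3 (1.79 ± 0.40, but -0.22 with at least 20 Gpr17 UMIs per 10000 and -0.14 under 5% ribosomal UMIs) and the signal transducer Smad1 (0.88 ± 0.17) higher and Id2 (-0.93 ± 0.17) lower. In the Wnt list 1 of 18 was higher, the ubiquitin ligase gene Rnf43 (1.25 ± 0.39), and 1 lower, the receptor gene Fzd1 (-1.57 ± 0.39), a share near the background. Of 26 G protein and cAMP genes, 3 were higher and 0 lower, the cAMP-activated exchange factor gene Rapgef3 (1.52 ± 0.29), the arrestin gene Arrb1 (0.84 ± 0.22) and the Go alpha subunit gene Gnao1 (0.53 ± 0.16). These 3 of 26 were a smaller share than the 15.3% of all genes called in either direction, and a larger one than the 6.39% called higher. Of 10 nucleotide, leukotriene and lipid receptor genes tested, P2ry12 alone was called, as lower.

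Of 16 output genes of the ERK kinase pathway, which lies below PDGF receptors, 7 were lower and 0 higher, with a median of -0.72, against 8.88% of all genes lower. Library totals gave 4 lower, cells with at least 5% ribosomal UMIs 9 lower, and a reference matched on ribosomal share 1 lower of 13. Ccnd1, the cyclin that drives entry into the cell cycle, stood at 1233 and 1170 CPM in the precursors, against 2779 and 2551 CPM in cells without a Gpr17 UMI (-1.25 ± 0.33, adjusted p = 0.0163). Phlda1 had 284.4 and 226.4 CPM, against 432.6 and 429.1 CPM (-0.84 ± 0.18), and Ier3 26.5 and 29.6 CPM, against 64 and 73 CPM (-1.38 ± 0.26). All 3 were lower in the precursors of both pools. Pdgfb counts, in which the mouse gene and the transferred gene were not told apart, were 26.5 and 14.8 CPM, against 32.9 and 39.7 CPM (-0.82 ± 0.29, adjusted p = 0.0696), and Pdgfa, another ligand gene, did not pass (-0.21 ± 0.33, adjusted p = 0.719).

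Some genes of excitability and of the cell surface were higher. Of 39 synaptic and channel genes, 13 were higher and 1 lower, against 6.39% and 8.88% of all genes, with a median of 0.46, and 10 were higher and 2 lower with at least 5% ribosomal UMIs and 3 higher and 1 lower of 37 with the reference matched on ribosomal share. The NMDA receptor subunit gene Grin3a had 313.3 and 226.4 CPM in the precursors, against 116.6 and 98.1 CPM in cells without a Gpr17 UMI (1.24 ± 0.16), and Kcnmb4, a subunit of calcium-activated potassium channels, 50.6 and 112.2 CPM, against 17.6 and 18 CPM (2.02 ± 0.25). Of 30 matrix and adhesion genes, 10 were higher and 1 lower, including Sema5a, Col11a2 and the collagen gene Col9a3 (1.13 ± 0.19), and with the matched reference 3 of 23 were higher. Cytoskeleton genes went the other way, with 3 of 29 higher and 9 lower. The microtubule regulator gene Stmn1 stood at 57.8 and 99.5 CPM, against 404.3 and 301.8 CPM (-2.34 ± 0.24), and the tubulin genes Tuba1b (-2.45 in pool 1 and -1.56 in pool 2) and Tubb5 (-1.58 ± 0.20), which have near-identical copies among which reads could be split, were also lower.

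Targets of p53 were lower for 6 of 14, with 0 higher and a median of -0.91 (-0.82 with the floor), against 8.88% of all genes lower, and 1 of 12 was lower with the reference matched on ribosomal share. Cdkn1a, an inhibitor of cyclin-dependent kinases, had 38.6 and 91 CPM in the precursors, against 186.8 and 246.8 CPM in cells without a Gpr17 UMI (-1.94 ± 0.27, adjusted p = 0.000149), and the kinase gene Plk2 (-1.50 ± 0.20) and the apoptosis gene Bax (-1.06 ± 0.20) were lower too. Gtse1, on this list, is also a G2/M gene. Of 15 immediate early and stress genes 3 were lower and 0 higher, Ier2 (-0.78 ± 0.20), Junb (-1.06 ± 0.31) and Zfp36, which had 1 UMI in the precursors and was 9.83-fold lower (1.74 to 390.3). Of 17 hypoxia genes 1 was higher, Mxi1 (0.90 ± 0.18), and 2 were lower, the glycolytic gene Ldha (-0.92 ± 0.27, but 0.22 with at least 20 Gpr17 UMIs per 10000) and Ndrg1, which had no UMI in the precursors and was at least 4.99-fold lower. These shares lie near the 6.39% of all genes higher and 8.88% lower. Of 23 cholesterol synthesis genes, Mvk (-0.85 ± 0.25) and Msmo1 (-0.57 ± 0.18) were lower, a share near the 8.88% of all genes. With library totals 0 of 23 were called, and under 5% ribosomal UMIs Mvk was at 0.36.

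Of the markers of other cells that the sort could hold, some neuron markers were higher in the precursors. Astrocyte markers gave 1 higher, the growth factor receptor gene Fgfr3 (1.80 ± 0.58), and 1 lower, Aldoc (-0.70 ± 0.20), of 9 tested, and summed to 1375 and 1198 CPM in the precursors, against 1338 and 1514 CPM. Neuron markers gave 3 higher of 6, the noncoding RNA Meg3 (0.81 ± 0.20), the glutamate decarboxylase gene Gad1 (1.07 ± 0.26) and the microtubule protein gene Dcx (0.57 ± 0.18), and summed to 1116 and 804.2 CPM, against 619.3 and 541 CPM, with 2 and 3 listed markers at 0 in the precursors. Over all genes 6.39% were higher and 8.88% lower. With at least 5% ribosomal UMIs Gad1 did not pass (1.03, adjusted p = 0.0563), nor did Fgfr3 (2.65, adjusted p = 0.096) or Aldoc (-0.39, adjusted p = 0.27). Fgfr3 was at -0.68 in precursors with no rule gene and at -0.07 under 5% ribosomal UMIs, and Dcx at -0.07 with at least 20 Gpr17 UMIs per 10000. With the reference matched on ribosomal share, 0 of 4 neuron markers were called. Their part in the results was not tested. Endothelium and pericyte markers summed to 13.3 and 10.6 CPM, against 6.85 and 8.47 CPM, and no erythroid marker had a UMI in the precursors.

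**Figure D4:**
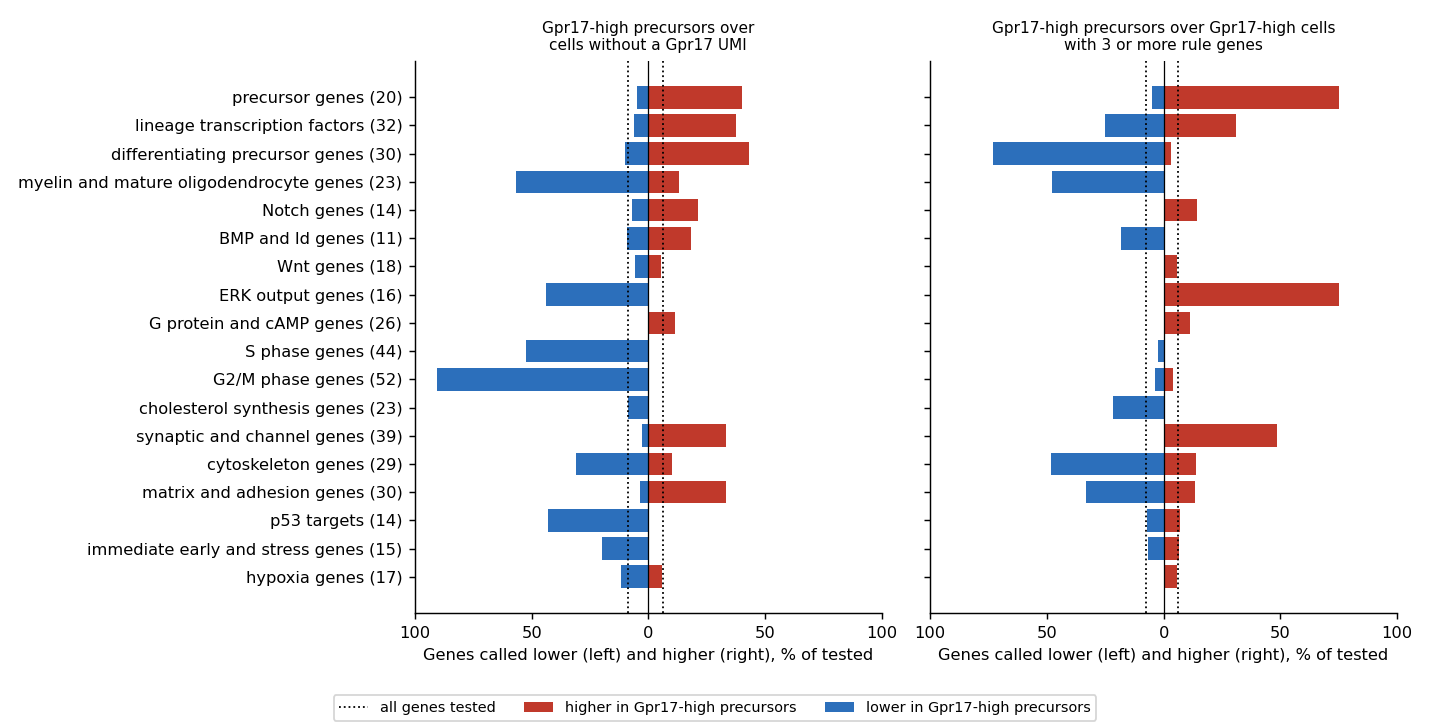
Share of each list's tested genes (number in brackets) called lower (blue, left) and higher (red, right) in Gpr17-high precursors over cells without a Gpr17 UMI and over Gpr17-high cells with 3 or more rule genes, with dotted lines for all genes tested. G2/M genes reach 47 of 52 lower in the first comparison, and ERK output genes change side, with 7 of 16 lower in the first and 12 of 16 higher in the second.

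Against the Gpr17-high cells with 3 or more rule genes, which share the Gpr17 threshold, the precursors had higher receptor and ERK output genes and lower myelin genes. Of the same 12734 genes, 806 (6.33%) were higher and 941 (7.39%) lower in the precursors, 13.7% in all, and 523 and 616 were called in cells with at least 5% ribosomal UMIs. With library totals the split was 1089 higher and 610 lower, 64.1% higher in place of 46.1%, and the median of all genes moved to 0.20 from 0.03. The median depth was 4948 and 8926.5 UMIs in the precursors and 12723.5 and 15493 UMIs in the cells with rule genes, and 65.4% and 22% of precursors but 10.9% and 0% of those cells had under 5% ribosomal UMIs. This comparison and the one above share the precursors.

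Pdgfra was at 1850 and 1295 CPM in the precursors, against 191.5 and 441.8 CPM in Gpr17-high cells with 3 or more rule genes (log2 2.21 ± 0.28, adjusted p = 6.92e-05), and was detected in 89.5% and 92% of thinned precursors, against 17.4% (7.82 to 31.4%) and 37% (19.4 to 57.6%). Cspg4 (1.67 ± 0.27), Ptprz1 (1.15 ± 0.19) and Olig1 (1.13 ± 0.21) were also higher in the precursors, as were 15 of 20 precursor genes, with 1 lower. Over all genes in this comparison 6.33% were higher and 7.39% lower. Of 16 ERK output genes 12 were higher and 0 lower, with a median of 1.77 (1.58 with the floor), and 7 of 16 were higher with at least 5% ribosomal UMIs. Ccnd1 stood at 1233 and 1170 CPM, against 193 and 782.3 CPM (1.27 ± 0.35, adjusted p = 0.0232). Synaptic and channel genes were higher for 19 of 39 and lower for 0. Pdgfb was higher (adjusted p = 0.0166) on 26.5 and 14.8 CPM, against 1.53 and 4.05 CPM from 3 UMIs, a ratio of 8.51 (2.64 to 43.6, counting error), and Pdgfa lower (-2.48 ± 0.32, adjusted p = 8.46e-05).

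Neu4 (-0.38 ± 0.17, adjusted p = 0.169), Sox8 (-0.13 ± 0.17, adjusted p = 0.672), Sema5a (-0.27 ± 0.18, adjusted p = 0.353), Sox10 (-0.37 ± 0.17, adjusted p = 0.164) and Vcan (0.05 ± 0.18, adjusted p = 0.911) did not pass between the Gpr17-high states, which does not show that they were equal. Genes of differentiating precursors were lower for 22 of 30 and higher for 1, with a median of -1.87 (-1.82 with the floor), against 7.39% of all genes lower and 6.33% higher. Bcas1 (-2.17 ± 0.24), Sirt2 (-2.43 ± 0.20), Fyn (-2.96 ± 0.21), Tcf7l2 (-2.49 ± 0.21), Nkx2-2 (-1.67 ± 0.19), Myrf (-3.43 ± 0.43) and Itpr2 (-1.07 ± 0.17) were all lower in the precursors. Myelin genes were lower for 11 of 23 and higher for 0. Mbp, a myelin protein gene, had 84.3 and 57.1 CPM in the precursors, against 2206 and 1706 CPM (-4.91 ± 0.28, adjusted p = 2.47e-08). S phase genes (0 higher and 1 lower of 44) and G2/M genes (2 higher and 2 lower of 52) were called at or under the background share, although Mki67 (10.6-fold, 3.34 to 53.6, on 3 UMIs in the cells with rule genes) and Top2a (2.03 ± 0.63) were higher in the precursors. Cholesterol synthesis genes were lower for 5 of 23.

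The genes of largest fold in this comparison included some at 0 in 1 state. In the precursors, the myelin adhesion gene Mag had no UMI, against 216 and 200.6 CPM, and was at least 90.9-fold lower. Fbln5, encoding the elastic fibre protein fibulin-5, was at least 25.4-fold lower, Fam129a at least 19.7-fold and the kinesin gene Kif19a at least 18.9-fold. The adhesion gene Epcam had 2 UMIs in the precursors and was 38.1-fold lower (10.1 to 320.8). Higher in the precursors were Rasgrf1, an activator of Ras, with 26.5 and 69.8 CPM against 0 and 2.03 CPM from 1 UMI (ratio 48.4, 8.33 to 1946), Ptgfrn (3.67 ± 0.81), the metabolic coactivator gene Ppargc1a (3.30 ± 0.62), the integrin gene Itga1 (3.19 ± 0.58) and Kctd12b (2.99 ± 0.49). Of these 5, Rasgrf1, Ptgfrn and Kctd12b did not pass against cells without a Gpr17 UMI, Ppargc1a was higher there (1.11 ± 0.29, but -2.18 with at least 20 Gpr17 UMIs per 10000) and Itga1 lower (-1.27 ± 0.22). The interferon-induced gene Isg15 was called higher in both comparisons but rested on pool 2, with 1.2 and 86.8 CPM in the precursors, 0 and 0 CPM in the cells with rule genes, and 6.35 and 7.33 CPM in cells without a Gpr17 UMI.

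Along the Gpr17 level, in cells with fewer than 3 rule genes, levels were followed for chosen genes only, and some of these were graded. From 0, through above 0 to under 5, 5 to under 10 and 10 to under 20, to 20 or more Gpr17 UMIs per 10000, the bins held 825, 1418, 301, 112 and 21 cells in pool 1 and 1232, 1137, 158, 38 and 12 cells in pool 2. Neu4 stood at 21.8, 47.5, 150.5, 311.1 and 552.1 CPM along these bins in pool 1 and at 13.9, 33.6, 170.4, 290.1 and 389.1 CPM in pool 2. Bcas1 changed little over the lower bins and most at the top, with 152, 188.9, 290.3, 480.1 and 1181 CPM in pool 1 and 184.9, 208, 271.9, 440.5 and 1257 CPM in pool 2. Both genes were higher in every successive bin of both pools. The last step of Neu4 in pool 2 rests on 39 UMIs in the top bin. Its interval there, 276.7 to 531.9 CPM, overlaps that of the bin below, 238 to 350.3 CPM. S100a6 did not follow this order, with 580.2 CPM at 10 to under 20 and 239.5 CPM at 20 or more in pool 2. Sox10 stood at 443.6 and 499.6 CPM in the bin of 10 to under 20 and at 386.5 and 478.9 CPM in the top bin. Its top-bin intervals, 269.2 to 537.5 and 353.1 to 635 CPM, contain those of the bin below, so no order is shown there.

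Mki67 went the other way above 5 per 10000, with 303.6, 295.7, 106.2, 37.9 and 11 CPM in pool 1 and 167.2, 198.2, 106.2, 18.8 and 0 CPM in pool 2. Its values in the top bin rest on 1 and 0 UMIs, with intervals up to 61.5 and 36.8 CPM that overlap those of the bin below. Ccnd1 had 2782, 2578, 1821, 1308 and 618.3 CPM in pool 1 and 2553, 2574, 1824, 1201 and 1058 CPM in pool 2. Pdgfra was highest at 10 to under 20 in pool 1 and at 5 to under 10 in pool 2, with 1192, 1206, 1655, 1858 and 1778 CPM in pool 1 and 1222, 1284, 1640, 1416 and 848.1 CPM in pool 2, so the pools parted in the bin of 20 or more, which held 12 cells in pool 2. Myrf stood at 10.8 and 2.69 CPM (8 and 1 UMIs) in the bin of 10 to under 20 and at 77.3 and 39.9 CPM (7 and 4 UMIs) in the bin of 20 or more. The top bins hold few cells, and the median depth was 7936, 11960, 6447, 5598 and 3751 UMIs in pool 1 and 12350, 14428, 10945.5, 9327.5 and 6811 UMIs in pool 2. The median ribosomal share was 9.15, 11.2, 6.96, 3.59 and 2.82% in pool 1 and 11.1, 12.3, 10.4, 8.71 and 8.27% in pool 2. Depth and ribosomal share therefore changed along the same bins, and their part in the trends was not tested.

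**Figure D5:**
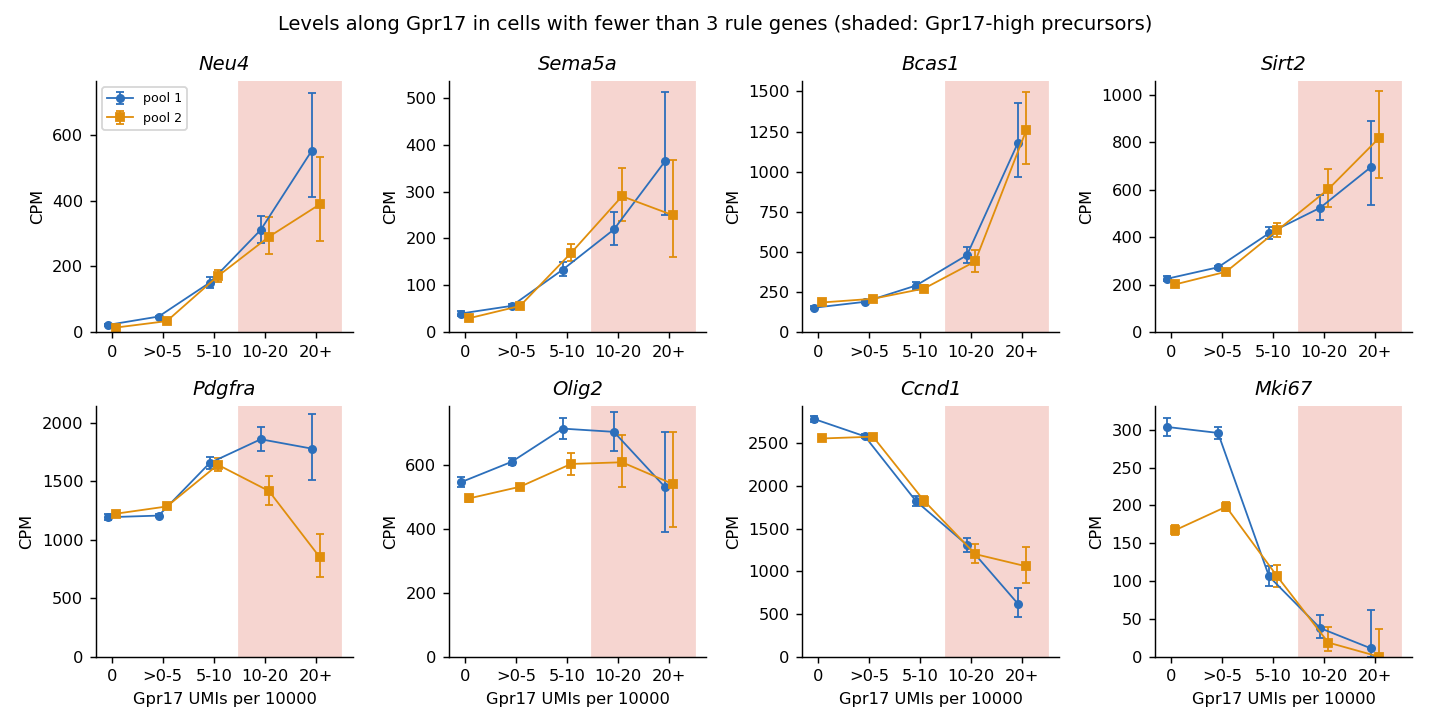
CPM of 8 genes (vertical axis, with exact Poisson 95% intervals) in 5 bins of Gpr17 UMIs per 10000 among cells with fewer than 3 rule genes, for pool 1 (circles) and pool 2 (squares). The shaded bins are the Gpr17-high precursors, and Neu4 reaches 552.1 and 389.1 CPM in the top bin while Mki67 is at 11 and 0 CPM there, on 1 and 0 UMIs.

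The precursors were not uniform. The 58 and 27 precursors with 1 or 2 rule genes had 750.9 and 740.9 CPM of Bcas1, against 368.1 and 408.9 CPM in the 75 and 23 with none, and 396.2 and 500.8 CPM of Cnp, against 232.7 and 298.4 CPM. Pdgfra lay the other way, at 1595 and 1142 CPM with rule genes, against 2097 and 1542 CPM without. Neu4 differed little, with 374.2 and 305.3 CPM against 301.6 and 320.5 CPM. Detecting a rule gene takes depth, and the median depth of these cells was 6444 and 8997 UMIs with rule genes, against 4641 and 8713 UMIs without.

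The split by ribosomal share touched other genes. The 87 and 11 precursors with under 5% ribosomal UMIs had 2603 and 2596 CPM of Pdgfra, against 1149 and 1149 CPM in the 46 and 39 with at least 5%. Cells without a Gpr17 UMI showed the same gap, 2311 and 2066 CPM under 5% against 969.7 and 1153 CPM. Malat1 differed in the same way, with 112191 and 121527 CPM in the precursors under 5%, against 54257 and 53033 CPM in those with at least 5%. Neu4 was at 295 and 314.1 CPM in the precursors under 5% and at 376.8 and 310.8 CPM in those with at least 5%, above the 52.8 and 41.7 CPM and the 15.7 and 11.7 CPM of reference cells in the same ranges. Sirt2 was lower in the precursors under 5%, at 322.5 and 502.5 CPM, against 746.6 and 663.9 CPM in those with at least 5%. With the reference matched on ribosomal share, Neu4 (3.24 ± 0.26), Sema5a (2.08 ± 0.22), Sox8 (1.88 ± 0.21), Bcas1 (adjusted p = 0.00066) and Mki67 (-3.26 ± 0.30) stayed past the threshold, while Ccnd1 (adjusted p = 0.128) did not.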

How the data were processed

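Libraries were made with the 10x Genomics 3ʹ kit and reads were run through Cell Ranger 6.0.2 against GRCm38 (mm10), as the submitters' processing notes name them. The files deposited by the authors hold whole-number UMI counts for each gene in each barcode, with no normalization applied. No source used here gives earlier filters or the strand setting. There were 3843 barcodes (33.9 M UMIs) in pool 1 and 3650 (40.9 M UMIs) in pool 2. Kept barcodes had at least 500 genes, at least 3000 UMIs and at most 15% mitochondrial UMIs, and their median depth was 9914 and 13118 UMIs. The pools shared 2 kept barcodes, neither among the precursors. No doublet caller was run, and an alternative left out the deepest 5% of cells.

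Counts were summed per pool and state (4 states, 8 sums, 3 residual degrees of freedom) and tested with edgeR 4.0.16 (quasi-likelihood F test, TMM, filterByExpr, pool as a block, R 4.3.3), with Benjamini-Hochberg adjustment over 12734 genes. The pool is a block because the states of a pool come from 1 library and its tumours. Gpr17 and the 6 rule genes were fitted but not called. SE is the absolute log2 fold change divided by the square root of F. CPM are relative to the UMIs of a state, with exact Poisson intervals, and shares have exact Clopper-Pearson 95% intervals. UMI counts of cells in 1 library share their source, so these intervals cover counting error only. Named genes were those past the threshold in a single direction across pools, averaging 20 CPM or more, of largest fold (12 each way, and 6 each way between the Gpr17-high states), up to 3 per list by smallest p, and a fixed set of lineage genes. Beside the core cycling list, Anln, Gtse1 and Gsn each stand on 2 lists. Gene positions come from the GENCODE annotation of GRCm38. The cells and lists were chosen with earlier results of these data known. The fit was tested on simulated counts. Some named genes are not reported here.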

Additional observations from a re-analysis of the deposited data

How the results depend on the processing

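Under the 21 alternatives of the comparison with cells without a Gpr17 UMI, 1880 values of named genes stayed, 261 were no longer called, 23 became called and 20 changed sign. Under the 10 between the Gpr17-high states, 980 stayed, 60 were no longer called, 25 became called and 1 changed sign, Fgfr3 at 0.40 in thinned cells. With a pool left out, 174 values stayed, 39 moved beyond their spread and 1 changed sign in the first comparison, and 173 stayed and 41 moved in the second. Without the pool as replicate block, 364 genes were higher and 476 lower than in cells without a Gpr17 UMI, and 508 higher and 564 lower between the Gpr17-high states. With cells thinned to 3000 UMIs, 738 were lower in the first comparison, and 491 higher and 452 lower in the second. A Gpr17 minimum of 5 gave 1250 higher. A minimum of 20 gave 258 higher and 458 lower, with Rph3a at -0.47, Ppargc1a at -2.18, Id3 at -0.22, Ldha at 0.22 and Dcx at -0.07. Precursors with no rule gene gave 489 higher, with Isg15 at -8.85 and Fgfr3 at -0.68. A reference matched on UMI total gave 205 higher and 211 lower, and one matched on ribosomal share 196 and 242. Without cycling cells 509 were higher and 600 lower, with Isg15 at -3.01, Mki67 at 0.04, Top2a at 0.37 and Atad2 at 0.41. Without other cell types, Mbp was 0.96, Ptgds 0.36 and Isg15 -7.15 (6 or more myelin genes), and Ptgds 1.36 and Apod 1.93 (13 or more). Under 5% ribosomal UMIs, 72 were higher and 123 lower, with Cnp at -0.60, Id3 at -0.14, Mvk at 0.36 and Fgfr3 at -0.07. Between the Gpr17-high states, 523 were higher and 616 lower with at least 5% ribosomal UMIs, and 610 lower with library totals. Unthinned cycling shares were 17.3% and 18% in the precursors, 26.1% and 40.7% in Gpr17-high cells with 3 or more rule genes, and 43.3% and 35.7% in cells without a Gpr17 UMI. Isg15 was -2.46 in pool 1 alone and 3.48 in pool 2 alone, and a single pool allows no test. Apart from the fewer cells or genes that some alternatives leave, the cause was not tested. The 50 precursors of pool 2 limit what is detectable there.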
